A study of Mus musculus with 16 samples.

Results

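The neutrophil genes described here were 10 in number: *Mpo* and *Elane*, enzymes of the azurophil granules, *Ngp*, *Camp* and *Ltf*, proteins of the specific granules, *S100a8* and *S100a9*, the calprotectin subunits that fill the neutrophil cytosol, *Retnlg*, a resistin-like secreted protein, and the surface proteins *Ly6g* and *Csf3r*. They were taken by name, as every gene probe of the array that carried 1 of these symbols, which gave 12 probes. *Mpo* and *Camp* had 2 probes each and the others 1. All 10 genes were tested, among 24357 genes in all, and no member was lost to the filter on dim probes.

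RNA from whole liver of male BALB/c mice was measured on 16 single-colour arrays, 1 per animal. Wild-type (WT) mice and mice lacking *Lcn2* (Lcn2-/-) received either corn oil (control) or CCl4 in corn oil. CCl4, a solvent that liver cells turn into a toxic radical, was injected into the peritoneum at 0.5 ml/kg 2 times per week for 4 weeks, and the liver was removed 48 h later than the final injection from mice that entered the study at 6 to 8 weeks of age. The WT groups held 4 control and 5 CCl4 arrays, and the Lcn2-/- groups 3 control and 4 CCl4 arrays. The Lcn2-/- line was made on another background and then backcrossed to BALB/c, and a germline deletion is also carried by the neutrophils. *Lcn2*, itself a specific granule protein, read 13.80 to 17.57 on the log2 scale on the WT control arrays and 10.46 to 11.53 on the Lcn2-/- control arrays, and the CCl4 groups did not overlap either, with 14.22 to 16.49 in WT and 10.60 to 12.25 in Lcn2-/-. Throughout, a level is the log2 of the array signal after quantile normalization, so that a difference of 1 stands for a 2-fold change in signal, and levels of different probes are not compared with each other.

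Neutrophils are short-lived cells made in the bone marrow. Their granules are filled in sequence during maturation: azurophil granule genes are transcribed in promyelocytes, specific granule genes in myelocytes and metamyelocytes, and gelatinase granule genes and many receptors later still, so that circulating neutrophils carry the proteins but little of the early transcripts. Calprotectin transcripts stay abundant in mature cells. In injured liver neutrophils enter from the blood and gather around dying hepatocytes. In bulk liver RNA, fewer cells of a type and less RNA per cell cannot be told apart.

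*Camp*, *Ngp* and *Ltf* all lie on chromosome 9 (GRCm38.p6, RefSeq), with gene starts 570.4 kb apart for *Camp* and *Ngp* and 599.5 kb apart for *Ngp* and *Ltf*. *S100a8* and *S100a9* are neighbours on chromosome 3, 26.6 kb apart. The other 5 genes are each on a chromosome of their own. The following 60-base probes, as the files give them with mm9 coordinates, are shown because the main results rest on them (*S100a8*, *Ngp* and *Ltf*), because they give a second reading of *Mpo*, or because they differ in what they share with other probes (*Ly6g*). The ends of the *Ngp* probe lie further apart in the genome than its length. Capitals mark a stretch of at least 20 bases that a probe for another named transcript also holds.
S100a8, chr3:90473778-90473837: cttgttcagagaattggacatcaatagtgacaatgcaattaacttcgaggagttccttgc
Ngp, chr9:110324266-110324814: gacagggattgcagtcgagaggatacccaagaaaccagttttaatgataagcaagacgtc
Ltf, chr9:110942873-110942932: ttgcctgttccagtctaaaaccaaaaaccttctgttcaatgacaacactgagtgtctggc
Mpo, second probe, chr11:87615121-87615180: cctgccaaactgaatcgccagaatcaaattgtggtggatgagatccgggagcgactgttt
Ly6g, chr15:74989023-74989082: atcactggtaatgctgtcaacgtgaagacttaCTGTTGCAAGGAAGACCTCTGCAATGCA

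The *Ly6g* probe shared its last 28 bases with a probe for a transcript named only by an Ensembl identifier. The *Csf3r* probe shared 30 bases with the probe for *Gm13241*, 20 bases with the probe for LOC631924 and, on the opposite strand, 24 bases with the probe for *Nxnl1*. A window of 15 bases in it was present, on either strand, in 9 gene probes of the array, the *Csf3r* probe included. No window of that length in any of the other 11 member probes was present in probes of more than 1 other gene, and of those 11 only the *Ly6g* probe and the pair of *Camp* probes, which overlap by 40 bases, shared 20 or more bases with another probe. The stretch is shown with that window in capitals, bases 30 to 59 of the probe.
Csf3r, within chr4:125721478-125721537: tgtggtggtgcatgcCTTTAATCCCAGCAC

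The 3 specific granule genes of chromosome 9 are shown next by the 250 bases before each gene start, 5′ to 3′ on the gene's strand (RefSeq, GRCm38.p6), since their levels moved together as given below. Capitals mark 2 motifs searched on both strands, TTNNGNAA, a loose form of the C/EBP site, and GAGGAA, the core bound by PU.1. Both are factors of myeloid differentiation. The motifs did not overlap each other in these 3 windows.
Ngp, chr9:110419558-110419807, plus strand: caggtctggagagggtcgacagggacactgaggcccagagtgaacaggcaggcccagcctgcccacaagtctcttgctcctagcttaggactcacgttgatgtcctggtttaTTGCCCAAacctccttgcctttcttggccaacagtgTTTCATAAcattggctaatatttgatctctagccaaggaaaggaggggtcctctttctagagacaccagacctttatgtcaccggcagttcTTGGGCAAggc
Ltf, chr9:111019042-111019291, plus strand: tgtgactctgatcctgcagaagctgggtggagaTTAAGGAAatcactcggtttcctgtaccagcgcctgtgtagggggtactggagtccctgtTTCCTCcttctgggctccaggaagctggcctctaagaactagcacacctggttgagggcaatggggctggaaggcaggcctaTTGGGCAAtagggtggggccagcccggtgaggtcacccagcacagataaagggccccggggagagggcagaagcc
Camp, chr9:109849457-109849706, minus strand: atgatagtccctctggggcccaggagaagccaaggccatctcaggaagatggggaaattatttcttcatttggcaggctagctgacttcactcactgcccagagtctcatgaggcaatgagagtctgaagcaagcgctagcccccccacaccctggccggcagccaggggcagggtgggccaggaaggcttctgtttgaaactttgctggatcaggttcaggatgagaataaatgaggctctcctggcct

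*Ngp* held 3 matches to the C/EBP form and *Ltf* 2 plus 1 PU.1 core, whereas the *Camp* window held neither. Over the 10 members, 6 windows held the C/EBP form and 6 held the PU.1 core. Of the 32851 promoters listed for the mouse, 36.8% and 23.3% held them, respectively. These are matches of letters in a window and not binding sites.

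Levels in the 4 groups are taken from here in the order of the granule classes. *Ltf*, lactoferrin, which binds iron, read 5.31, 5.18, 8.29 and 5.17 on WT control arrays 1 to 4 and 10.05, 10.76, 9.94, 10.53 and 10.30 on WT CCl4 arrays 1 to 5. In Lcn2-/- mice it read 2.98, 3.82 and 10.55 on control arrays 1 to 3 and 8.91, 9.40, 8.66 and 9.63 on CCl4 arrays 1 to 4. Within WT the groups did not overlap, whereas in Lcn2-/- mice control array 3 stood above all 4 CCl4 arrays and the other control arrays stood far below them. *Ltf* was well above background on only 1 of 4 WT control and 1 of 3 Lcn2-/- control arrays, array 3 in both cases, and on all 9 CCl4 arrays.

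*Ngp*, neutrophilic granule protein, which resembles the cathelicidin precursors, was also highest on array 3 among the controls of each genotype. It read 2.95, 3.94, 6.99 and 4.56 on the WT control arrays and 8.63, 9.10, 8.58, 9.23 and 7.95 on the WT CCl4 arrays. The Lcn2-/- control arrays read 2.96, 2.95 and 9.62 and the Lcn2-/- CCl4 arrays 8.10, 8.22, 7.29 and 7.58. Here too array 3 was the only control array of either genotype that was well above background, and Lcn2-/- control 3 was the highest of all 16 arrays.

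*Camp*, the precursor of the antimicrobial peptide CRAMP, moved less. Its levels were 10.49, 10.73, 10.89 and 10.47 in WT controls, 11.91, 12.09, 11.68, 12.20 and 11.81 in WT CCl4, 10.11, 10.50 and 12.77 in Lcn2-/- controls and 11.08, 11.53, 10.81 and 11.54 in Lcn2-/- CCl4. The WT groups were apart, and again Lcn2-/- control 3 was the highest of the 16. WT control 3, which was high for *Ltf* and *Ngp*, was only 0.33 above the mean of the other WT controls for *Camp*.

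*Mpo*, myeloperoxidase, which makes hypochlorous acid, read 5.77, 6.29, 8.79 and 6.23 in WT controls and 9.76, 9.67, 9.02, 10.30 and 9.70 in WT CCl4. In Lcn2-/- mice the controls read 5.88, 4.50 and 12.15 and the CCl4 arrays 8.45, 9.53, 8.36 and 9.25. Lcn2-/- control 3 was the highest of all 16 arrays and stood 3.25 above the mean of its CCl4 group, while Lcn2-/- control 2 was not well above background. The second *Mpo* probe was also highest on Lcn2-/- control 3, at 9.04. It was not well above background on the other Lcn2-/- controls (2.89 and 2.91), and was so on only 1 of 4 WT controls.

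*Elane*, neutrophil elastase, the other azurophil enzyme, did not follow *Mpo*. Its levels ran from 10.95 to 11.31 in WT controls, 11.15 to 11.52 in Lcn2-/- controls, 10.61 to 11.08 in WT CCl4 and 10.49 to 11.51 in Lcn2-/- CCl4. All 16 arrays lay between 10.49 and 11.52. Lcn2-/- control 3 was the highest of them, by a small margin over Lcn2-/- CCl4 1 at 11.51. *Elane* had a single probe, and whether its signal is that of *Elane* alone was not tested.

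*S100a8* read 9.85, 10.12, 12.66 and 10.50 in WT controls, 12.92, 13.72, 13.05, 13.07 and 12.72 in WT CCl4, 9.33, 9.70 and 13.16 in Lcn2-/- controls and 11.80, 12.54, 11.87 and 12.60 in Lcn2-/- CCl4. *S100a9*, its partner in calprotectin, read 12.19, 12.41, 14.94 and 12.94, then 14.88, 15.83, 15.09, 15.11 and 14.47, then 11.80, 12.05 and 15.02, and then 13.98, 14.46, 14.00 and 14.34 in the same order of groups. For *S100a8* the WT groups were apart by the narrow gap between 12.66 and 12.72, and for *S100a9* WT control 3 reached into the CCl4 range. Both were well above background on all 16 arrays.

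*Retnlg* differed from the others in the Lcn2-/- controls. It read 5.67, 6.82, 8.08 and 7.22 in WT controls, 9.92, 9.94, 9.25, 9.51 and 9.17 in WT CCl4, 3.89, 6.32 and 7.48 in Lcn2-/- controls and 8.23, 8.70, 8.67 and 9.35 in Lcn2-/- CCl4. Lcn2-/- control 3 was again the highest of its group but stayed 1.25 below the mean of its CCl4 group, so that control and CCl4 arrays did not overlap in either genotype. Only Lcn2-/- control 1 was not well above background.

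Of the surface proteins, *Ly6g*, the antigen by which mouse neutrophils are sorted, read 11.04, 11.25 and 11.52 on WT controls 1, 3 and 4 and slightly below the first of these on WT control 2, and ran from 11.06 to 11.52 in Lcn2-/- controls, 10.77 to 11.65 in WT CCl4 and 10.65 to 11.66 in Lcn2-/- CCl4. *Csf3r*, the receptor for granulocyte colony-stimulating factor, ran from 16.53 to 16.77, 16.67 to 16.80, 15.64 to 16.74 and 15.70 to 16.54 in the same order. Given the bases that their probes share with other probes, the signals of *Ly6g* and *Csf3r* may not be those of these genes alone. This holds here and in the differences below. The arrays of *Ly6g* overlapped between all groups. For *Csf3r* the Lcn2-/- control arrays all stood above the Lcn2-/- CCl4 arrays.

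**Figure D1:**
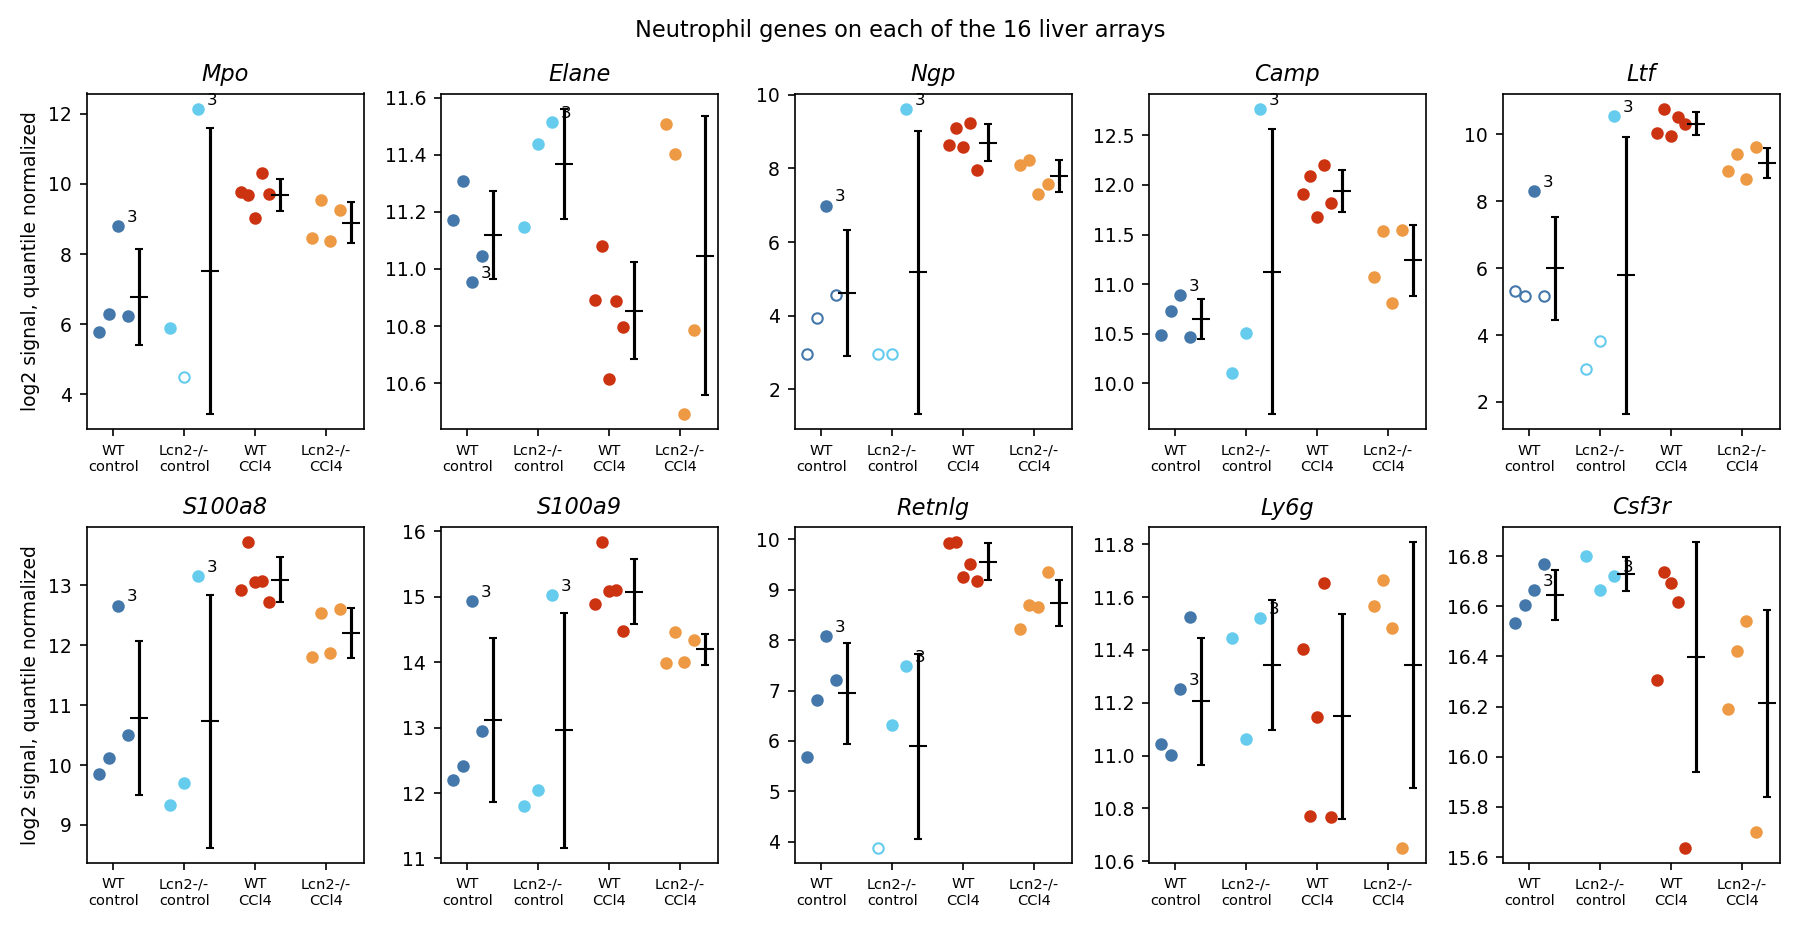
Level of each of the 10 genes (log2 signal, quantile normalized, each panel on its own scale) on the 16 arrays by group, with the group mean and SD in black. Open circles are arrays on which the probe was not well above background, and the digit 3 marks control array 3 of each genotype. In Ltf and Ngp only array 3 of each control group is filled, and Lcn2-/- control 3 is the highest array for Mpo, Ngp and Camp.

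The response of WT liver to CCl4 was the first comparison. Of the 10 genes, 6 rose and 0 fell at an adjusted p under 0.05 (limma, Benjamini-Hochberg over all genes), where 8.05% of all 24357 genes rose. Specific granule and calprotectin genes were among those that rose. *Ltf* rose by 4.33 ± 1.16 (SE) on the log2 scale, from 5.99 ± 1.54 (SD, n = 4) to 10.32 ± 0.34 (SD, n = 5), which is 20.1-fold (adjusted p = 0.0203). *Ngp* rose by 4.09 ± 1.13 (17.0-fold, adjusted p = 0.0233), from 4.61 ± 1.72 to 8.70 ± 0.51. Both folds are against control groups in which 3 of 4 arrays were not well above background. With those arrays raised to the lowest signal well above background on each, a value set after seeing the data, the differences of *Ltf* and *Ngp* were 4.27 and 2.98 (19.3-fold and 7.86-fold).

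*Retnlg* rose 6.11-fold (2.61 ± 0.59 on the log2 scale, adjusted p = 0.00769). *S100a8* rose 4.97-fold, by 2.31 ± 0.69 (adjusted p = 0.0339), and *S100a9* 3.88-fold, by 1.96 ± 0.63 (adjusted p = 0.0463). *Camp* rose 2.45-fold, by 1.29 ± 0.40 (adjusted p = 0.0378), and its second probe gave a difference of 1.26 ± 0.39. *Mpo* differed by 2.92 ± 1.14 with an adjusted p of 0.0956 and was not called, although its groups did not overlap. *Elane*, *Ly6g* and *Csf3r* differed by -0.27 ± 0.19, -0.06 ± 0.23 and -0.25 ± 0.21. The median difference of the 10 members was 2.13, against -0.03 over all genes tested. For 6 of the 10 every WT CCl4 array stood above every WT control array, where 8.09% of all genes did so.

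The WT count rested on single arrays. It fell to 1, *Retnlg*, without WT control 1, 2 or 4, where 5.56%, 5.73% and 6.52% of all genes rose. It was 3 without WT CCl4 1, 2 or 4 (6.93%, 6.59% and 6.84% of all genes) and 4 without WT CCl4 3 or 5 (7.56% and 6.99%), and it was 7 without WT control 3, with *Mpo* added (adjusted p = 0.0481), where 10.1% of all genes rose. Over the 27 alternatives in which it could be fitted, the adjusted p of *Mpo* ran from 2.76e-05 to 0.539. The count was 3 with no filter on dim probes, where 4.98% of the 36450 genes then tested rose, and 5 with the replicate number as a block, where 7.18% of all genes rose. Without WT control 3 all remaining WT controls were not well above background for *Ngp* and *Ltf*, and the CCl4 means were at least 10.5-fold and 32.3-fold higher.

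Treatment was nearly shared with the slide, since all controls were on slide 1 and all CCl4 arrays but WT CCl4 1 on slide 2. WT CCl4 1, on the slide of the controls, stood above all 4 WT controls for *S100a8*, *Mpo*, *Ngp*, *Camp*, *Ltf* and *Retnlg*, and for *S100a9* above all but WT control 3. With the slide as a block, or within slide 1 alone, 0 members passed, where 3.31% and 1.85% of all genes rose, and the differences of *Ltf* and *Ngp* under the block were 4.06 ± 2.01 and 4.02 ± 1.96. In these fits the treatment effect within a slide rests on that 1 array, and the part of the slide in the result cannot be told apart from treatment for the other 4.

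The same comparison in Lcn2-/- mice gave fewer calls. *Retnlg* alone of the 10 rose, by 2.84 ± 0.67 or 7.16-fold (adjusted p = 0.0132), from 5.90 ± 1.84 (SD, n = 3) to 8.74 ± 0.46 (SD, n = 4), where 6.56% of all genes rose. In this genotype all controls were on slide 1 and all CCl4 arrays on slide 2, so that treatment and slide cannot be told apart within it. With the slide as a block, which takes the slide effect from WT CCl4 1, *Retnlg* differed by 3.29 ± 1.23 (adjusted p = 0.208, the highest of a range from 0.000733 over 26 alternatives) and 0 members passed, where 1.38% of all genes rose. The differences of the other genes had large errors. *Ltf* differed by 3.37 ± 1.32 (adjusted p = 0.116), *Ngp* by 2.62 ± 1.29 (adjusted p = 0.208), *S100a8* by 1.47 ± 0.79, *Mpo* by 1.39 ± 1.30, *S100a9* by 1.24 ± 0.71 and *Camp* by 0.11 ± 0.45. For *Ltf* and *Ngp* only 1 of the 3 control arrays was well above background, and with the other arrays raised to the lowest signal well above background on each, the differences were 1.86 and 0.82. For *Retnlg* and *Mpo*, with 1 control array raised in the same way, they were 2.23 and 1.02. *Elane*, *Ly6g* and *Csf3r* differed by -0.32 ± 0.21, -0.00 ± 0.26 and -0.52 ± 0.24. The median of the 10 was 1.31, against -0.02 over all genes.

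The Lcn2-/- controls spread widely. Their SD was 4.15 for *Ltf*, 4.07 for *Mpo* and 3.85 for *Ngp*, against 0.44, 0.58 and 0.43 in the Lcn2-/- CCl4 group. Without Lcn2-/- control 3, 7 of the 10 rose in Lcn2-/- mice, where 6.59% of all genes rose, and they were the same 7 genes that rose in WT mice without WT control 3. *Ltf* and *Ngp* were then not well above background on either remaining control array, and the CCl4 means were at least 11.3-fold and at least 4.40-fold higher. *S100a8* rose 6.43-fold, *S100a9* 4.82-fold and *Camp* 1.91-fold. *Mpo* and *Retnlg* were set against 2 controls of which 1 was not well above background for each gene. They rose 13.1-fold (3.71 ± 0.69) and 12.4-fold as measured, and 8.94-fold and 6.57-fold with that control raised to the lowest signal well above background on it. The adjusted p of *Mpo* was 0.0041 in that setting and ran from 0.000158 to 0.976 over its 26 alternatives. The Lcn2-/- count was 0 without Lcn2-/- control 1, where 4.26% of all genes rose. It was 5 with array weights, which lower the weight of arrays that fit the model poorly, and 13.3% of all genes rose in that fit.

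**Figure D2:**
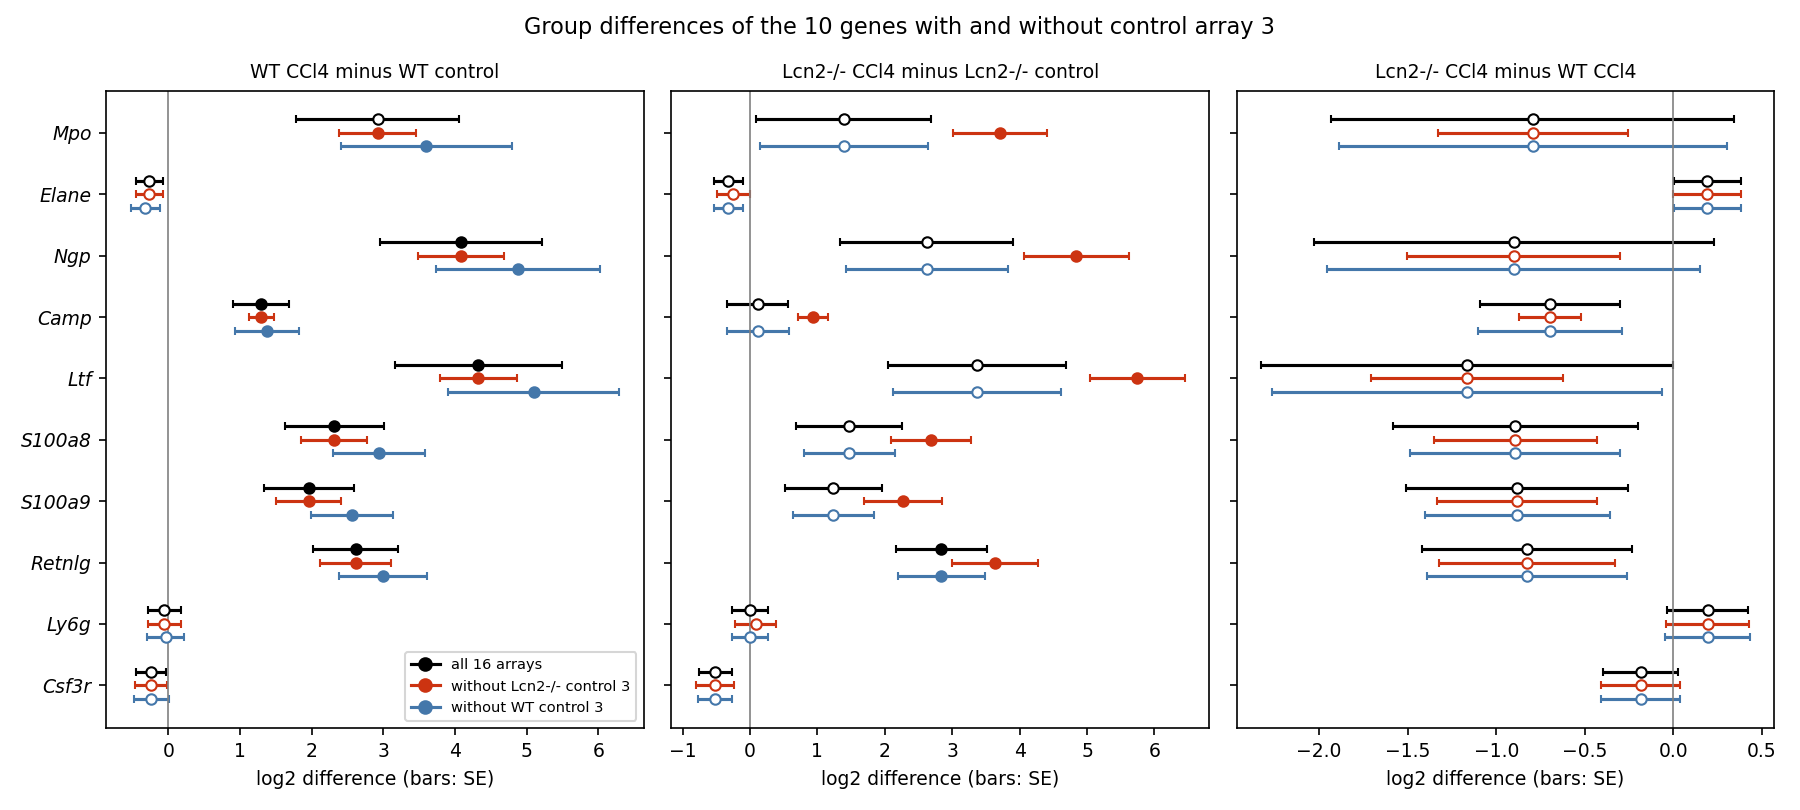
Log2 difference between groups for the 10 genes, with the SE as bars, for all 16 arrays (black), without Lcn2-/- control 3 (red) and without WT control 3 (blue); filled circles passed an adjusted p under 0.05. In the middle panel 1 circle is filled in black and 7 in red, and the 3 genes Elane, Ly6g and Csf3r stay near 0 in the left panel; each panel has its own scale, and without array 3 the points of Ngp and Ltf are set against controls not well above background.

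Genotype under CCl4 was compared next. No member passed the test, where 0.649% of all genes passed in either direction. With 0 calls, 0 of the 10 also had an unadjusted p under 0.05. Of the 10 differences 8 were negative, with a median of -0.81 against -0.01 over all genes. The levels of 7 of these genes were correlated over the arrays, as given below, so that their signs are not separate observations. *Ltf* differed by -1.16 ± 1.16, *Ngp* by -0.90 ± 1.13, *S100a8* by -0.89 ± 0.69, *S100a9* by -0.88 ± 0.63, *Retnlg* by -0.83 ± 0.59, *Mpo* by -0.79 ± 1.14 and *Camp* by -0.70 ± 0.40. For *S100a8*, *S100a9*, *Camp* and *Ltf*, 4 of the 10, every Lcn2-/- CCl4 array read below every WT CCl4 array, where 3.35% of all genes did so.

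Errors in this comparison are pooled over the 4 groups and so include the spread of the controls. When control 3 of both genotypes was left out, the same difference of *Ltf* had an SE of 0.24 and an adjusted p of 0.0411, and it was the only 1 of the 10 that passed, where 1.05% of all genes passed. Most members read highest of their control group on these arrays. Leaving them out thus lowers the pooled spread of the members, and this p is not independent of that choice. Over the 27 alternatives the adjusted p of *Ltf* ran from 0.0411 to 0.864. Within slide 2, which holds 4 WT CCl4 and all 4 Lcn2-/- CCl4 arrays, *Ltf* differed by -1.23 ± 0.26 (adjusted p = 0.108) and *S100a8* by -0.94 ± 0.27, and 0 of the 10 passed, where 0.435% of all genes did. On that slide the WT arrays fill 1 row and the Lcn2-/- arrays the other, and genotype and row cannot be told apart there.

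Between the control groups no member passed, where 0.517% of all genes passed. All WT controls were in 1 row of slide 1 and all Lcn2-/- controls in the other, so genotype and row cannot be told apart here either. The largest differences were -1.05 ± 0.67 for *Retnlg* and 0.74 ± 1.30 for *Mpo*, and 6 of the 10 differences were positive, with a median of 0.11. Without Lcn2-/- control 3 that of *Mpo* was -1.58 ± 0.69, 3 of the 10 were positive and the median was -1.23, and without WT control 3 the median was 0.50. The direction of the median thus rested on Lcn2-/- control 3, and the median was also negative with array weights (-0.24). By contrast, *Retnlg* was lower in Lcn2-/- controls in all 27 alternatives. When control 3 of both genotypes was left out, *Ltf* passed, where 0.62% of all genes did, but it was not well above background on any of the arrays that were left, and no fold is given. The interaction, which asks whether the response to CCl4 differed between genotypes, was passed by 0 members and by 0.0534% of all genes. *Camp* had an interaction of -1.18 ± 0.60 and *Mpo* of -1.53 ± 1.72, and 2 of the 10 were positive, with a median of -0.78. Without Lcn2-/- control 3 the interactions of *Camp* and *Mpo* were -0.36 ± 0.29 and 0.79 ± 0.88, 8 of the 10 were positive and the median was 0.34. The sign of the median thus rested on that array. With all arrays no member had an unadjusted p under 0.05 in either comparison. The Lcn2-/- response, the WT response and the genotype differences share their samples, so that their values are given side by side and were not correlated.

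Agreement among the members was described over the arrays, with no test. The 7 genes *S100a8*, *S100a9*, *Mpo*, *Ngp*, *Camp*, *Ltf* and *Retnlg*, grouped after their values were seen, had pairwise Pearson correlations from 0.72 to 0.99 over the 16 arrays, with a median of 0.90. *S100a8* and *S100a9* reached 0.99, and the lowest values were those of *Retnlg* with *Mpo* and with *Camp*, 0.72 each. Over the 14 arrays without control 3 of either genotype the range was 0.88 to 0.99. *Elane*, *Ly6g* and *Csf3r* correlated with the 7 at -0.45 to 0.14. The arrays share their 4 groups and 2 slides, which these coefficients contain.

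Control array 3 of each genotype was then set against the other controls, gene by gene. WT control 3 exceeded the mean of the other WT controls by 2.69 for *Mpo*, 2.51 for *S100a8*, 2.42 for *S100a9* and 1.51 for *Retnlg*. For *Ngp* and *Ltf*, which were not well above background on any of those other arrays, it was at least 3.23-fold and 7.97-fold higher. Lcn2-/- control 3 exceeded the other Lcn2-/- controls by 3.64 for *S100a8*, 3.09 for *S100a9* and 2.46 for *Camp*. Of the 2 arrays it is set against, 1 was not well above background for *Mpo* and 1 for *Retnlg*, and with that array raised to the lowest signal well above background on it the excess was 6.41 for *Mpo* and 1.46 for *Retnlg* (6.96 and 2.38 as measured). For *Ngp* and *Ltf* neither was, and Lcn2-/- control 3 was at least 15.6-fold and 29.6-fold higher. *Mpo* was thus high among the controls on both arrays, at rank 1 of 16 from the top on Lcn2-/- control 3 and at rank 9 on WT control 3, whereas *Camp* was 2.46 above the other controls on the first and 0.33 on the second. Both arrays had the third position in their row of slide 1, and their 75th percentile of signal, 1482 and 1144, lay within the range of 842 to 2067 over all arrays but were each the highest of their control group, where the others read 842 to 1179 in WT and 846 and 908 in Lcn2-/-.

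Further genes, picked from the lists after their values were seen, also differed between these 2 arrays. On Lcn2-/- control 3 the azurophil genes *Ctsg*, cathepsin G, and *Prtn3*, proteinase 3, read 10.84 and 9.09, above all 15 other arrays, whose highest values were 8.90 and 7.79. These are 2 of the 5 azurophil genes of that list. The mean of all 5 was 7.13 on WT control 3 and 7.89 on Lcn2-/- control 3. *Cebpe*, the factor that drives specific granule genes, read 8.62 there, also the highest of the 16. *Mmp8* and *Mmp9*, neutrophil collagenase and gelatinase, read 6.70 and 6.18 on WT control 3 and were not well above background on Lcn2-/- control 3 or on any other control array. *Il1b*, *Acod1* and *Cxcl2*, genes of activated myeloid cells, read 12.47, 12.03 and 7.54 on WT control 3, the highest of the 16 in each case. On Lcn2-/- control 3 *Il1b* and *Acod1* read 10.65 and 7.26, and *Cxcl2* was not well above background.

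**Figure D3:**
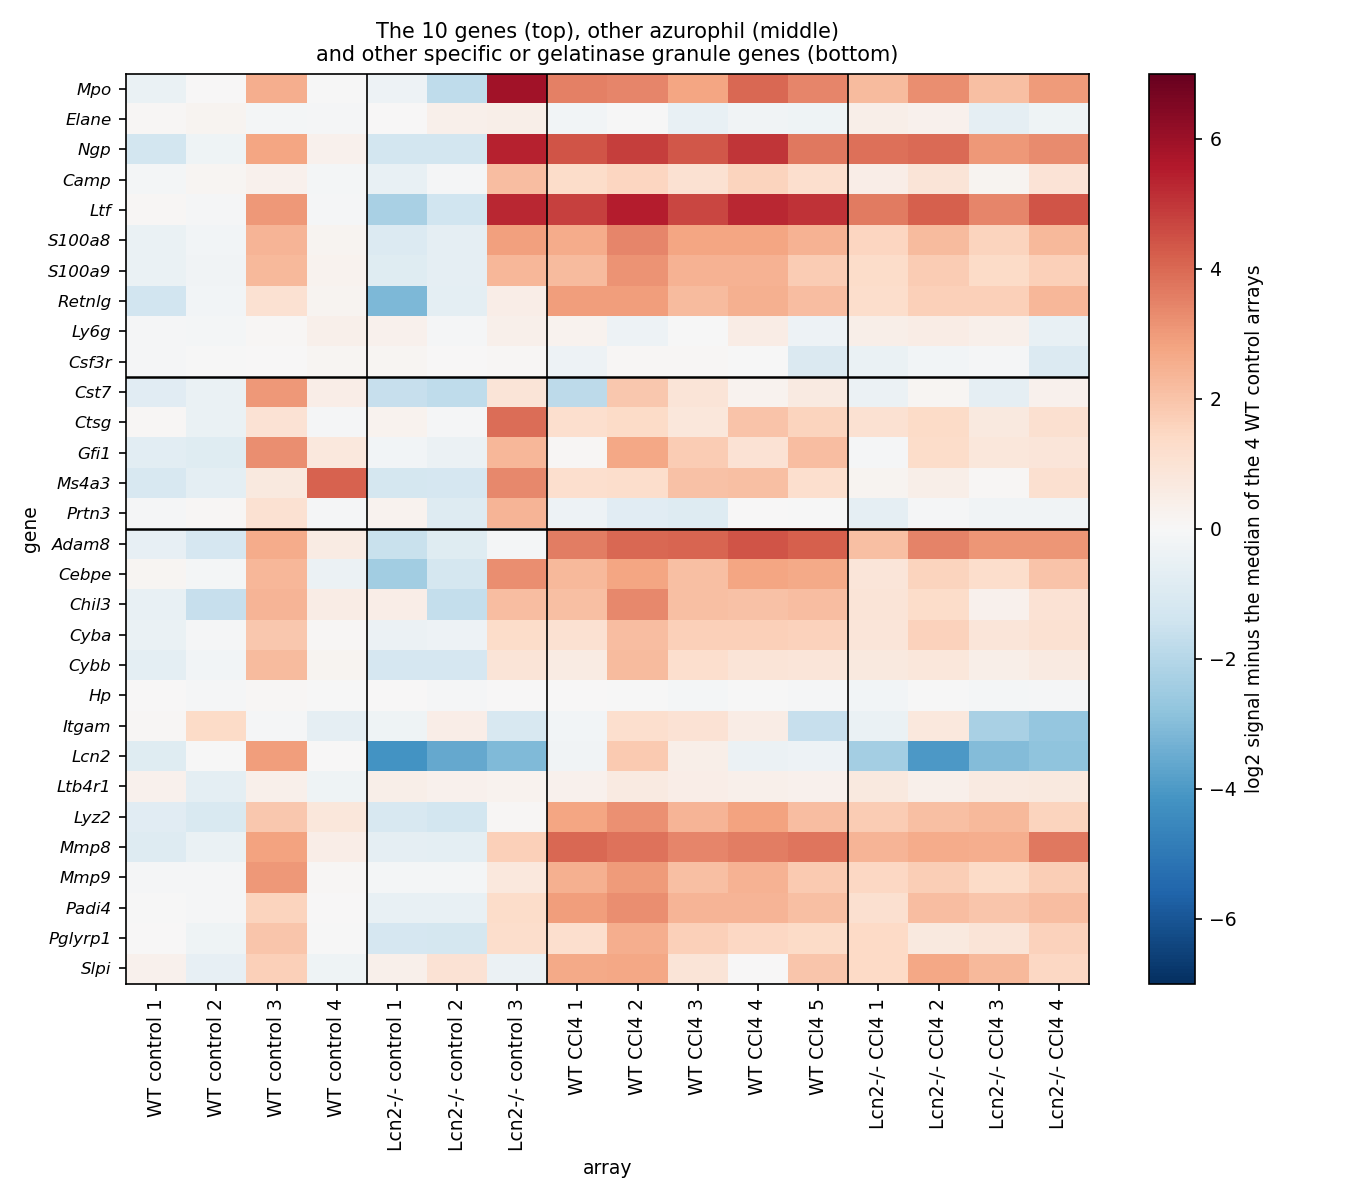
Log2 signal minus the median of the 4 WT control arrays for the 10 genes (top block), 5 other azurophil genes (middle block) and 15 other specific or gelatinase granule genes (bottom block) on the 16 arrays, with black lines between groups. The column of Lcn2-/- control 3 is darkest for Mpo, Ngp and Ltf and pale for Adam8, Lyz2 and Mmp9, whereas the CCl4 columns are red for most specific and gelatinase granule genes.

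Markers of several other blood and liver cells were also high on these arrays. The mean level of 12 Kupffer cell genes was 13.54 on WT control 3 and 13.77 on Lcn2-/- control 3, against 11.80 to 12.45 on the other 14 arrays. The mean of 11 monocyte genes was 13.31 and 12.31 on the 2 arrays, against at most 11.77 on the other controls. For 15 T, B and NK cell genes the means were 9.47 and 8.59, against 7.45 to 8.29, and for 6 platelet genes 7.65 and 8.40, against 6.80 to 7.35. For 9 eosinophil, basophil and mast cell genes they were 7.28 and 7.96, against at most 6.64 on the other controls, and for 19 acute-phase genes 16.87 and 16.11, each the highest of its control group. The 9 hepatocyte genes had means of 18.03 to 18.30 on all 16 arrays. The 9 erythroid genes did not stand out there, with means of 13.94 on WT control 3 and 13.40 on Lcn2-/- control 3, below the 14.22 on WT control 2 and 14.00 on Lcn2-/- control 2. The part of these cells in the member levels was not tested.

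The same lists were counted between CCl4 and control arrays. Of all genes, 8.05% rose and 8.63% fell in WT, and 6.56% rose and 5.58% fell in Lcn2-/- mice. Of 12 Kupffer cell genes 3 fell in WT and 1 in Lcn2-/- mice and 0 rose, of 11 monocyte genes 1 fell in WT and 1 rose in Lcn2-/- mice, and of the 9 hepatocyte genes 0 passed in either genotype. Of 15 T, B and NK cell genes 2 fell in WT and 1 in Lcn2-/- mice, of 9 erythroid genes 2 fell in WT, of 6 platelet genes 0 passed and of 19 acute-phase genes 4 fell in WT. Of 9 eosinophil, basophil and mast cell genes 1 rose and 1 fell in WT, and 2 rose and 1 fell in Lcn2-/- mice. Between the genotypes under CCl4, 0.649% of all genes passed in either direction. *Lcn2* was the only gene of the 5 further neutrophil lists that passed there. Of the other lists, 2 of 9 erythroid genes, *Car1* and *Klf1*, were higher in Lcn2-/- CCl4 mice, and all 9 differences were positive. The monocyte gene *Cx3cr1* also passed, with a log2 difference of -1.64 ± 0.23. The median of the 11 monocyte genes was -0.65, and 4 of the 11 differences were positive. Between the control groups, too, 1 monocyte gene was lower in Lcn2-/- mice, where 0.517% of all genes passed in either direction. The part of the genes of these lists in the member differences was not tested.

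Neutrophil genes outside the 10 were taken from 5 further lists. Among 5 other azurophil genes tested, 0 passed in WT or in Lcn2-/- mice, with medians of 0.80 and 0.13, and *Ctsg* differed by 1.23 ± 0.62 in WT (adjusted p = 0.200). In this fit with all arrays, 8.05% of all genes rose in WT and 6.56% in Lcn2-/- mice. With both control 3 arrays left out, a setting chosen after seeing the data for these lists, 2 rose in WT and 1 in Lcn2-/- mice. In that setting 11.3% of all genes rose in WT and 8.51% in Lcn2-/- mice, which holds for the counts of the lists that follow.

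Of 15 other specific and gelatinase granule genes, 5 rose in WT and 4 in Lcn2-/- mice (8.05% and 6.56% of all genes), and 0 fell in either. *Adam8*, a granule protease that cuts selectins, rose by 3.70 ± 0.59 in WT (adjusted p = 0.00058) and by 3.78 ± 0.67 in Lcn2-/- mice (adjusted p = 0.00214). *Lyz2*, lysozyme, which macrophages also express, rose by 2.46 ± 0.50 and 2.69 ± 0.57. *Mmp8* rose in WT by 3.24 ± 0.65 against 4 controls of which 3 were not well above background, or by 1.96 (3.88-fold) with those raised to the lowest signal well above background on each, and in Lcn2-/- mice it was at least 2.11-fold higher than in controls that were all not well above background (adjusted p = 0.0290). *Padi4*, which citrullinates histones, was at least 1.73-fold higher in WT CCl4 (adjusted p = 0.00245), since no WT control was well above background. In Lcn2-/- mice *Padi4* also passed (adjusted p = 0.0291), with no fold given because 1 of 4 CCl4 arrays was well above background. The list counts rose to 12 in WT and 9 in Lcn2-/- mice with both control 3 arrays left out.

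Of 18 other surface receptors, 3 rose and 1 fell in WT, where 8.05% and 8.63% of all genes did so. In Lcn2-/- mice 1 rose, where 6.56% of all genes rose. *Clec4d*, a C-type lectin, rose in both, by 2.58 ± 0.69 and 3.27 ± 0.79. *Cxcr1*, a chemokine receptor, was at least 3.02-fold higher in WT CCl4 than in WT controls, none of which was well above background (adjusted p = 0.00277). *Fcgr3* rose by 0.89 ± 0.27 and *Trem1* fell by 0.67, both in WT. Leaving out both control 3 arrays gave 12 that rose and 1 that fell in WT, and 9 and 1 in Lcn2-/- mice.

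Of 18 cytosolic and other genes of mature neutrophils, 3 rose in WT and 1 in Lcn2-/- mice (8.05% and 6.56% of all genes). The counts were 10 and 7 with both control 3 arrays left out. *S100a11*, a calcium-binding protein that many cells express, rose by 1.51 ± 0.31 and 1.81 ± 0.35. *Stfa1*, a stefin, rose in WT by 1.42 ± 0.44 against 4 controls of which 3 were not well above background, or by 0.59 with those raised in the same way. Of 11 growth factor and chemoattractant genes, 1 rose in WT and 3 in Lcn2-/- mice, against the same 8.05% and 6.56% of all genes. The counts were 4 and 4 with both control 3 arrays left out. *Anxa1*, annexin A1, rose by 2.76 ± 0.37 and 1.94 ± 0.42, and *Ccl3* and *Ccl4*, chemokines of myeloid cells, rose by 2.21 ± 0.48 and 2.32 ± 0.71 in Lcn2-/- mice. With both control 3 arrays left out, *Ccl3* and *Ccl4* also rose in WT, by 1.78 ± 0.28 and 1.50 ± 0.43. *Cxcl5*, a neutrophil chemoattractant, passed in both genotypes in that setting, with no fold given because it was well above background on only 2 of 4 WT and 0 of 3 Lcn2-/- control arrays.

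**Figure D4:**
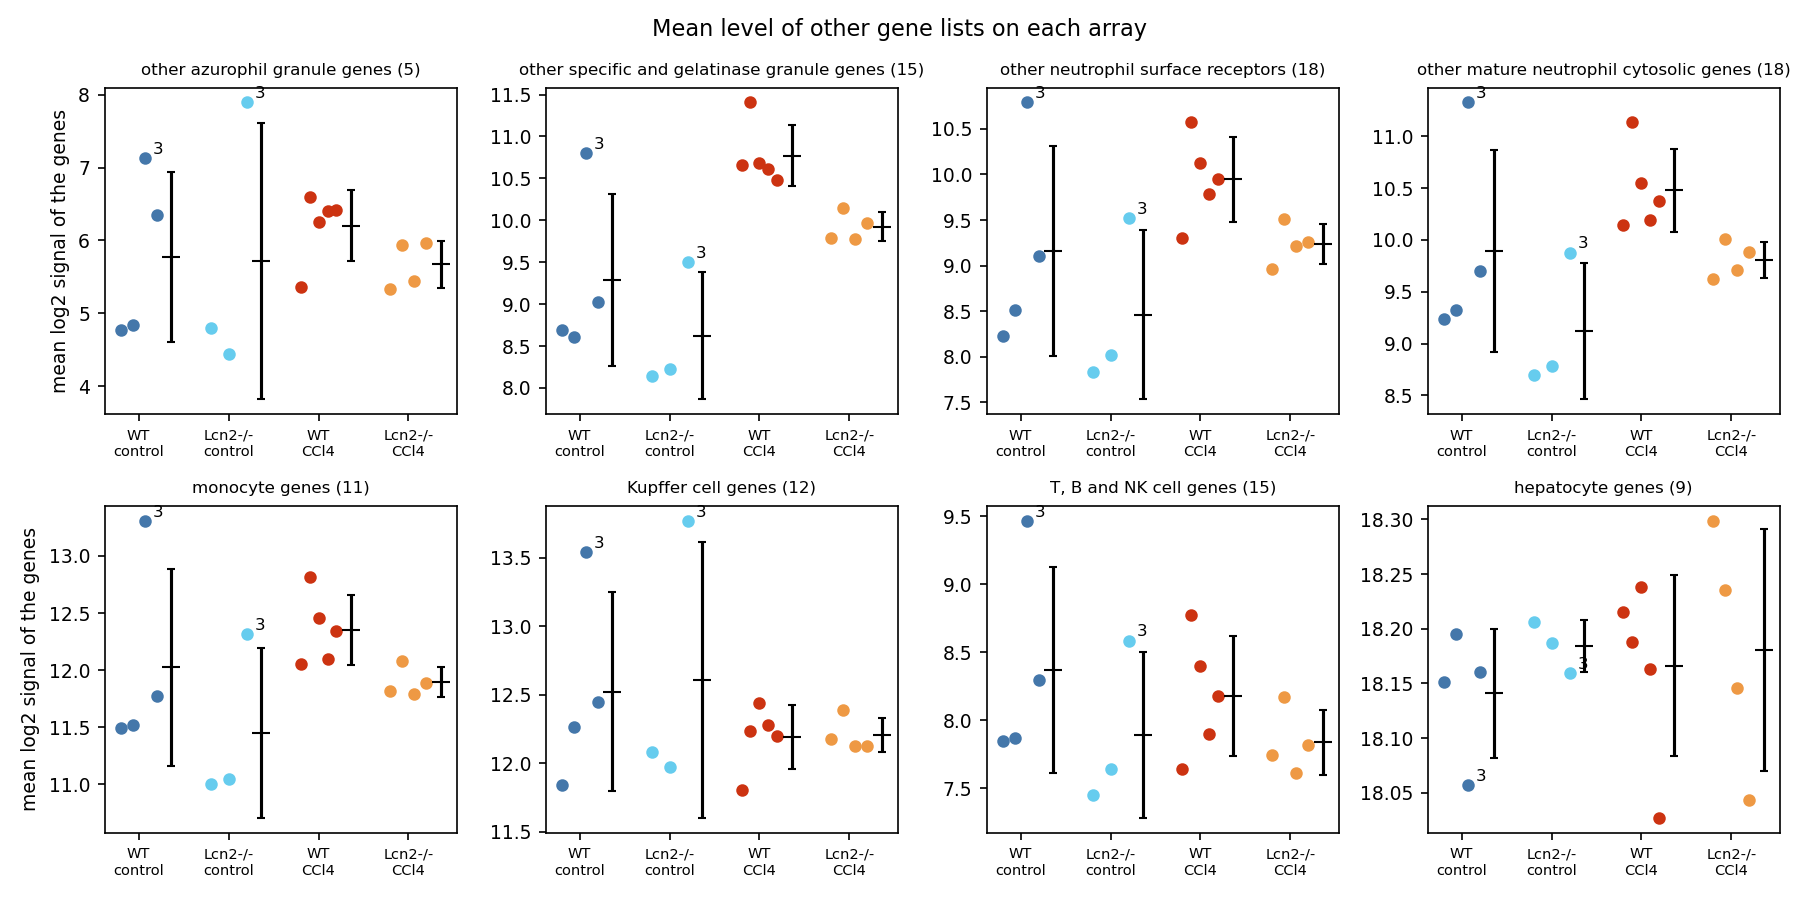
Mean log2 signal of the genes of 8 lists (number of genes tested in parentheses, each panel on its own scale) on each array by group, with the group mean and SD in black; the digit 3 marks control array 3. For the other specific and gelatinase granule genes the Lcn2-/- CCl4 arrays lie between 9.78 and 10.15 and the WT CCl4 arrays between 10.48 and 11.41 (9.62 to 10.12 and 10.21 to 11.04 without the deleted gene *Lcn2*, which is in this list), and control 3 is the highest control in 7 of the 8 panels in WT.

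The genes outside the 10 whose levels were most like the mean of the 10 standardized members over the 16 arrays were *Hk3*, a hexokinase of myeloid cells (Pearson r = 0.91), *Twf2* (0.91), *Aig1* (0.90), *Rflnb* (0.90), *C1qa* (0.90), *G6pdx* (0.90), *Ctss* (0.90) and *Fermt3* (0.89). *Hk3* also came first over the 15 arrays without WT control 3 (r = 0.95), followed by AI429363, *Rgs2*, *Ifi30*, *Lrmp*, *Fermt3*, *Slc11a1* and *Arhgdib* (0.93 each). These 2 lists of 8 shared 2 genes, *Hk3* and *Fermt3*. Over the 14 arrays without control 3 of either genotype the 8 genes were others, *Hexa*, *Lgals1*, *Pkm*, *Gng11*, *Psap*, *Pcdhb21*, *B3gnt8* and *Mrc2* (r from 0.96 for *Hexa* to 0.95 for *Mrc2*), so that the genes named depend on those 2 arrays. *Rflnb* was well above background on only 5 arrays. These coefficients contain the difference between CCl4 and control arrays and carry no test.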

How the data were processed

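Liver RNA was hybridised to single-colour Agilent mouse arrays, 1 per animal. The authors deposited scanner files (Feature Extraction 10.7.3.1, mm9) whose processed signal is an intensity already corrected for background, and a log2 table that they quantile normalized. In that deposited log2 matrix, 99.9% of values lay within 0.05 of the log2 median spot signal minus background after quantile normalization, and it served as an alternative. Here control spots were left out, and log2 processed signals were quantile normalized over 16 arrays. A probe was kept if its signal was well above background on 3 or more arrays (33014 of 55681), with the brightest tested probe per gene. A single model over the 4 groups was fitted with limma 3.58.1 in R 4.3.3, with 5 contrasts and Benjamini-Hochberg adjustment over 24357 genes. Between 51.6% and 60.9% of gene spots were well above background, and 0 were saturated. Precision is limited by how many arrays each group held and by the spread of the control arrays. The fit was tested on 1 simulated data set for the WT comparison, with 100 genes changed by 1 on the log2 scale and 100 others by 2, up or down. It recovered 62% of the first and 85% of the second, with 6 false calls in all among the unchanged genes.

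Members and gene lists were chosen with earlier results of these data known. All 10 members were named, with list genes of lowest adjusted p and the 8 genes of highest correlation with the members. Replicate numbers shared between the control groups came with correlated deviations (r = 0.23, 0.37 and 0.55, equal positions on slide 1). An alternative fit therefore had the replicate number as a block over all arrays, those of CCl4 included. It left 0 members called between the controls. Alternatives were 75th percentile scaling, normexp background correction (offset 50), the deposited table, other filters (none, or 8 arrays), the mean of a gene's probes, array weights, slide, replicate number and each array left out. Promoter sequences were from RefSeq (GRCm38.p6). A bound ("at least") set the dim group at the dimmest signal, on each array, of any probe well above background there, or at its own signal if higher.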

Additional observations from a re-analysis of the deposited data

Results flagged for a closer look

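*Ltf* on the WT control arrays stood out because its highest value, 8.29 on WT control 3, lay far from the other 3 values, none of them well above background, with a gap to the nearest of them of 0.955 of the group's whole range. It was the only 1 of 30 gene and group combinations tested in this way that passed Dixon's critical value for a single outlying sample, a rule that chance alone passes in about 1 in 20 groups. *Mpo* on the same arrays was just under the critical value (0.829), and *S100a8* had a share of 0.769, with WT control 3 the highest array in both. *Ly6g* on the Lcn2-/- CCl4 arrays was also under that value, with a share of 0.820 and array 4 the lowest. The groups of 3 Lcn2-/- controls were too small for this rule.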

How the results depend on the processing

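The count of members that rose in WT was 6. It was 3 with no filter on dim probes, 0 with the slide as a block and 0 within slide 1, and it ran from 1 to 7 when single arrays were left out. In Lcn2-/- mice 1 member rose and 0 fell. The count in either direction was 2 with 75th percentile scaling, where 1 rose and *Csf3r* fell, 5 with array weights, 0 with the slide as a block, and 0 to 7 when single arrays were left out. With control 3 of both genotypes left out it was 7 in Lcn2-/- mice, 1 between the CCl4 groups and 1 between the control groups. The cause was not tested. With the replicate block, the WT count was 5, with *Camp* lost, and the Lcn2-/- count 1. In the comparisons that include CCl4 arrays, r between arrays of the same replicate number had both signs, from -0.22 to 0.25. The highest of these was above the lowest between the control groups (0.23).

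Several differences changed sign. Those of *Mpo* and *Ngp* between the control groups ran from -1.58 to 2.24 and from -1.66 to 1.68 over the alternatives, and the interaction of *Mpo* from -3.04 to 0.79, with the ends at -1.58, -1.66 and 0.79 without Lcn2-/- control 3. Without that array, WT control 3 was the only control on which *Ngp* was well above background. The value of -1.66 and its sign thus rest on dim signals. *Ly6g* in WT was 0.14 with array weights, 0.20 with the slide as a block and within slide 1, 0.038 with the replicate block, and ran from -0.18 to 0.049 with single arrays left out, above 0 without WT control 4, WT CCl4 2 or WT CCl4 5. In Lcn2-/- mice it was 0.079 with array weights, 0.32 with the slide as a block, 0.088 without control 3 of both genotypes, and -0.14 to 0.23 with single arrays left out, above 0 without Lcn2-/- control 1 (0.051), control 3 or CCl4 4. *Camp* in Lcn2-/- mice was -0.39 without Lcn2-/- control 1 and -0.20 without control 2, and *Mpo* was -0.11 without control 2. With single arrays left out they reached 0.93 and 3.71, both without control 3. With 75th percentile scaling the median of all genes was -0.16 in WT, with 1579 genes higher and 3560 lower (1961 and 2103 in the fit described above), and -0.14 in Lcn2-/- mice, with 1180 higher and 2069 lower (1598 and 1360).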
